A study of Rattus norvegicus and Mus musculus with 10 samples.

Results

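The histone cluster genes were taken as all genes whose symbol starts with Hist1h, Hist2h, Hist3h or Hist4h and that held at least 20 unique molecules (UMIs) in cells with a cluster from the authors. Of 40 such symbols in the rat table, 33 passed, and of 67 in the mouse table, 57 passed, which made 90 members among 63936 genes of both tables. They were followed through leukocytes of the central nervous system (CNS) and its borders, as CPM (their UMIs as a share of all UMIs of the same cells, scaled to a total of 1000000). The rat groups were CNS, choroid plexus, dura, pia, blood and cerebrospinal fluid (CSF) of naive Lewis rats, 25 rats in all per the labels. In the first 4 tissues, CD45 positive leukocytes that a CD45 antibody given into the circulation had not reached were sorted. CSF cells were used unsorted, and blood gave mononuclear cells from a density gradient. The mouse groups were skull dura of 4 pooled unimmunized C57BL/6 mice (naive) and skull dura pooled from 3 C57BL/6 mice taken when active experimental autoimmune encephalomyelitis (EAE, an induced autoimmune disease of the CNS) was at its peak. One characteristics field gives EAE for both mouse libraries, so naive and EAE follow the sample titles. Each group was 1 pooled library, so no difference between groups was tested, and every interval is a 95% interval for counting error only.

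Histones package DNA into nucleosomes, with H2A, H2B, H3 and H4 forming the core and H1 binding the linker. The genes of the histone clusters are made mainly in S phase, when new DNA needs new nucleosomes, and most of their mRNAs end in a stem-loop instead of a poly(A) tail. SLBP binds that loop. A few copies, among them Hist1h1c, Hist1h2bc and Hist2h2be, are also known as polyadenylated mRNAs in cells that do not divide. The libraries were made with a 3′ kit that primes on poly(A), so the counts hold the part of each histone mRNA pool that such priming captured.

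The stem-loop is shown first because the members differed in where their annotated transcript ends relative to it. All 57 mouse members matched a transcript of the GENCODE annotation of GRCm38, and 39 of them held the loop pattern (GG, any 2 bases, CTTTT, any base, AG, any 2 bases, CC) on the transcribed strand, against 0.0875% of 141767 transcripts. Of these 39, 18 ended within 100 bases of the loop and 21 ran on past it, and 18 members had no match within their annotated transcript. Several transcripts without a match are short, such as Hist1h2ai (393 bases), Hist1h2bn (381) and Hist1h4k (312), while others are long, such as Hist2h2be (2620). A loop past the annotated end would not be seen, so no match does not mean that the gene lacks the loop. Members lay on chromosome 13 (45 genes), 3 (9 genes), 11 (2 genes) and 6 (1 gene), and 53 had a single exon. The loops below belong to the H2A, H3, H4 and H1 copies that the results turn on, with the 16 loop bases in capitals:
Hist1h2ap: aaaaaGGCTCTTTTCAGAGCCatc
Hist1h2ae: acaaaGGCTCTTTTCAGAGCCattca
Hist1h2ab: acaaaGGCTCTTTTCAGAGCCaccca
Hist2h2ac: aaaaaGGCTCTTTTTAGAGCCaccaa
Hist1h3c: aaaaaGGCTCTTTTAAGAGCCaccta
Hist1h4d: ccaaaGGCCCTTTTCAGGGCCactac
Hist1h1e: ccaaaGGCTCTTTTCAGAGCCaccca
Hist1h1c: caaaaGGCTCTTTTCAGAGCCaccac
Hist3h2a: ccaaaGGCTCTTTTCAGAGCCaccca
Hist1h2ap (chr13:21833026-21833507, minus strand) ended 3 bases after the loop, and Hist1h2ab, Hist2h2ac and Hist1h3c ended 11, 57 and 74 bases after it. Hist1h2ae (chr13:23570517-23571220, minus strand) ran 151 bases past the loop and held the polyadenylation signal AATAAA 28 bases from its end. Hist1h1c (chr13:23738808-23740367, plus strand) and Hist3h2a (chr11:58954685-58956830, plus strand) ran on for 840 and 1643 bases and held that signal 26 and 34 bases from their ends. Hist1h1e and Hist1h4d ran on for 1153 and 770 bases. AATAAA lay in the last 100 bases of 11 members and of 28.4% of all transcripts. The loop core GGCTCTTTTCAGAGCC was the most common, in 24 members, while 6 H4 members shared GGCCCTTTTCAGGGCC. Hist1h1b and Hist1h2bc had no match in their transcripts.

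Rat promoters were read from RefSeq (build GRCr8, not the build of the counts), where 20 of the 33 rat members matched 1 promoter each. The 3 below are the 200 bases upstream of an H2A gene and an H1 gene that were much higher in dural than in blood B-lineage cells, and of the most counted H2B gene, which was level between them. Capitals mark the CCAAT box, the TATA box (letters TATAAA), the octamer (letters ATTTGCAT) and the H1 box (letters AAACACA) on either strand, and no capital run here belongs to more than 1 of them:
hist1h2ail2: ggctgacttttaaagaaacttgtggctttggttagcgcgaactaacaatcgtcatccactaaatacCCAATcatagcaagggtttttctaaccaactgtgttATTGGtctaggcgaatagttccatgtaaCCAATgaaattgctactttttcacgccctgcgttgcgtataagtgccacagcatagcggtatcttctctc
Hist1h1b: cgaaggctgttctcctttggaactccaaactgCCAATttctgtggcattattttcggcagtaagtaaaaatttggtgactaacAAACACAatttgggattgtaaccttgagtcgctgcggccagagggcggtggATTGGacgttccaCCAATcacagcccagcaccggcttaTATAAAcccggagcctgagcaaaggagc
Hist1h2bcl1: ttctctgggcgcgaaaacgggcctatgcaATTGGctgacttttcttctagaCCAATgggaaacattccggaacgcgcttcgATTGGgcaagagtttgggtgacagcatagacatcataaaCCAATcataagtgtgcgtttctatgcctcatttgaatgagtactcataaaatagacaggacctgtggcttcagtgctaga
They lie at chr17:47448702-47448901 (plus strand), chr17:47421675-47421874 (plus strand, listed as H1f5) and chr17:47392350-47392549 (minus strand, listed as Hist1h2bc). The CCAAT box occurred in 18 of the 20 member promoters and in 29.2% of 33469 rat promoters. The TATA box occurred in 10 of 20 against 10.4%, the octamer in 7 of 20 against 1.25%, and the H1 box in 2 of 20 against 4.71%. The octamer lay in 3 of 6 H2B promoters. The windows of Hist2h2ac and Hist2h2be overlap on opposite strands, so matches in the overlap, their octamer among them, count for both genes. These matches describe the letters of the windows.

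A few copies held most of the counts. In mouse, Hist1h2ap (H2A) had 44287 of 118380 member UMIs (37.4%), followed by Hist1h2ae (H2A) with 14612, Hist1h1b (H1) with 9110, Hist1h1e (H1) with 8953, Hist1h4d (H4) with 6380, Hist1h1c (H1) with 5711, Hist1h2ab (H2A) with 3081 and Hist1h2bc (H2B) with 2757. In rat, Hist1h2bcl1 (H2B) had 2958 of 10305 UMIs (28.7%), followed by Hist1h1d (H1) with 2134, Hist3h2ba (H2B) with 876, Hist1h1c with 769, Hist1h1b with 696 and hist1h2ail2 (H2A) with 320. The top 8 copies held 80.2% of the mouse and 80.7% of the rat UMIs, and the median member had 357 and 87. By kind, H2A led in mouse (14 members, 58.5% of UMIs) and H2B in rat (8 members, 44.4%). H1 was next in both, at 21.7% (5 members) and 35.9% (4 members). H3 held 4.83% in mouse (11 members) and 6.39% in rat (7 members), and H4 8.71% (11 members) and 2.09% (2 members). H2B was at 6.28% in mouse (16 members) and H2A at 11.2% in rat (12 members). Just inside and outside the minimum of 20 UMIs lay Hist1h2bl (25) and Hist1h2ao (18) in mouse and Hist1h2ail1 (21) and Hist1h2ba (13) in rat.

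Several copies are so alike that counting may not separate them, and the handling of reads that fit several copies is not given in the sources used here. Over the last 300 bases of Hist1h2ap, all 251 words of 50 bases also occurred in Hist1h2ao and 187 in Hist1h2ab, Hist1h2ac and Hist1h2ad. For Hist1h1e, all 251 occurred in Hist1h2be, an H2B gene. The annotations of Hist1h1e (chr13:23620629-23622558) and Hist1h2be (chr13:23583670-23621124) overlap on the minus strand. Their shared words thus come from overlapping annotation and not from likeness between copies. Hist1h2ae had 78.1% words of its own, Hist1h3c 64.5%, and Hist1h1b, Hist1h1c, Hist1h4d and Hist3h2a 100%. Values of single copies such as Hist1h2ap and Hist1h1e are therefore uncertain as to the gene of origin. Rat symbols that occur more than once, such as Hist2h3c2 and Hist1h3b, are given with their gene identifier.

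The annotated rat libraries held 2272 to 4953 cells at median depths of 981 to 2704 UMIs, and the mouse libraries 2776 naive cells (median 4163.5) and 4579 EAE cells (median 11743). The rat libraries shared 243 barcode sequences over 487 of 21187 cells, and the mouse libraries 7 over 14 of 7355. The lowest depth of an EAE cell was 5722 UMIs against 503 in naive. Neutrophil markers, 10 genes, summed to 3296 to 510867 CPM over the 17 EAE clusters (median 7968) and to 124 to 366475 over the 17 naive clusters (median 213). Erythroid markers summed to 698 to 8339 CPM over the 8 rat CSF clusters (median 899) and to 107 to 1832 over the 7 blood clusters (median 162). The part of these differences in the results was not tested. Over all annotated cells the members summed to 116 CPM in pia, 149 in CNS, 243 in blood, 299.7 in choroid plexus, 317 in dura and 336 in CSF of the rat, and to 471 CPM in naive and 1879 in EAE mouse dura.

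In rat, the members summed to between 50.03 and 1949 CPM over 51 groups of one cluster in one tissue (median 177). The highest level was in dural cells of cluster Bc2 (1949 CPM, 1859 to 2042, 371 cells), whose B cell markers summed to 3695 CPM and whose B precursor markers, the genes of receptor rearrangement and the surrogate light chain, to 2773 CPM. NK cells of the choroid plexus followed (1391, 1274 to 1517, 311 cells), then CD8 T cells (868) and CD4 T cells (781, 644 to 938) of the choroid plexus. Cluster Bc1, the other B cell cluster, reached 687 in CSF, 626 in dura and 346 in blood. The lowest level was in dural myeloid 2 cells, at 50.03. Cells labelled Bc2 in CNS (36 cells, 285 CPM) and pia (26 cells, 574 CPM) carried none of the 6 B cell markers searched, so the label does not hold there.

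**Figure D1:**
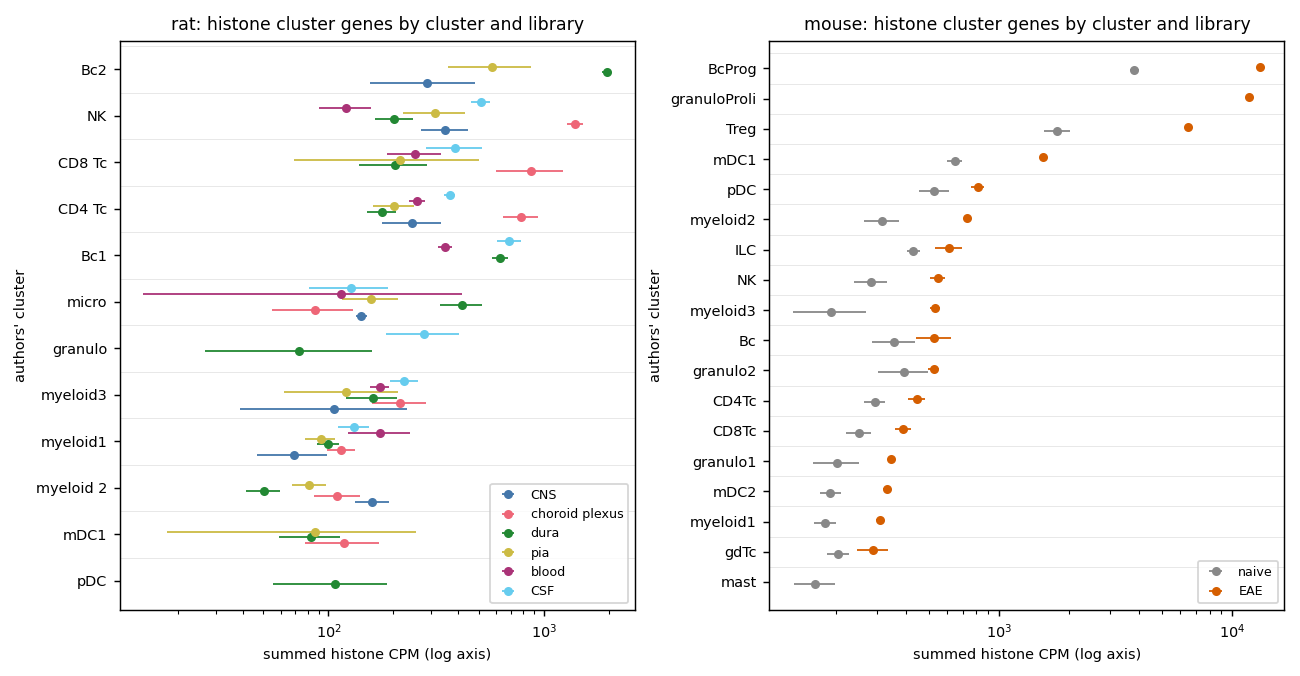
Summed CPM of the histone cluster genes (log axis) for each of the authors' clusters with at least 20 cells, in rat (left, colours are tissues) and mouse (right, colours are conditions). Points are pooled libraries and bars are 95% counting intervals. Dural Bc2 at 1949 and choroid plexus NK at 1391 stand at the right of the rat panel, and EAE BcProg at 13128 and EAE granuloProli at 11796 at the right of the mouse panel.

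B-lineage cells (Bc1 and Bc2 together) of the rat dura held 3.77 times the histone CPM of those in blood (1310 against 347, interval of the ratio 3.47 to 4.11, 1207 and 1231 cells). Nearly all of the blood cells were Bc1 (1226 cells), while dura had 836 Bc1 and 371 Bc2 cells. The dural Bc2 cells held 1755 of the 2281 dural histone UMIs. The sum and the single copies below therefore compare sides that differ in cluster make-up as well as tissue. Of the 21 members with at least 20 UMIs over both sides, 19 were at least 2-fold higher in dura and 0 were 2-fold lower, beside 17.7% and 14.1% of all 8044 genes. Their median log2 ratio was 3.06, and that of all genes 0.12. Dura held 2281 histone UMIs against 701 in blood, so members could reach 20 UMIs through dura alone, as Hist1h3a did. The counts of members and their median therefore lean toward dura through the filter itself. The log2 ratio of the sum was 1.92, and 0.63 without cell-cycle-positive cells (defined below), an alternative chosen after seeing the data. The comparisons between tissues share libraries, blood or dura in most of them, so they are not independent of each other.

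The copies differed widely in that comparison. The H2A gene hist1h2ail2 stood at 125 CPM in dural and 3.96 in blood B-lineage cells (31.5-fold, 15.7 to 73.8). The linker histone gene Hist1h1b stood at 210 against 10.9 (19.2-fold, 12.5 to 31.1), and the H3 gene Hist1h3b (ENSRNOG00000054539) at 23.0 against 0.99. Hist1h3a (H3) was counted at 27.6 CPM in dura and had 0 UMIs in blood, where the limit of 3 counts gives a log2 ratio of at least 4.21. At the other end, Hist1h2bcl1 (H2B) was at 137 CPM on both sides (238 and 277 UMIs, ratio interval 0.83 to 1.19), and Hist3h2ba (H2B) at 67.2 against 26.8 (2.51-fold). The most counted rat copy was thus level, while several copies that were nearly uncounted in blood were not.

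Within cluster Bc1 alone the ratio was smaller, 1.81 (1.61 to 2.03), from 626 and 346 CPM. Of 8 members, 4 were at least 2-fold higher and 0 lower, against 13.3% and 14.6% of all genes, with a median log2 ratio of 1.05 against 0.03. In Bc1 the H2A gene hist1h2ail2 was at 16.7 against 3.49 CPM, and Hist1h1c, a copy known from non-dividing cells, at 80.9 against 33.4. Macrophage and monocyte markers summed to 4293 CPM in dural and 941 in blood Bc1 cells, and their part in the ratio was not tested. Bc1 cells of CSF were also above blood (1.98-fold, 1.71 to 2.29), with 3 of 6 members at least 2-fold higher and 0 lower, against 6.49% and 20.2% of all genes.

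**Figure D2:**
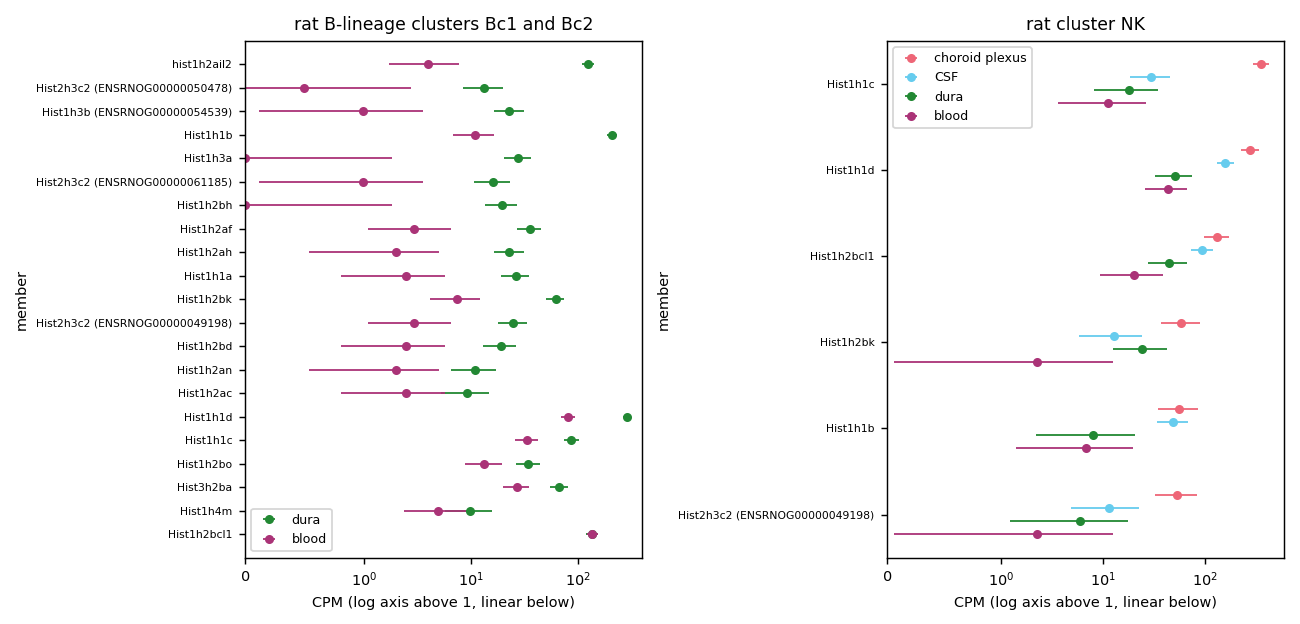
CPM of single rat members (log axis above 1, linear below) with 95% counting intervals. Left: the 21 members with at least 20 UMIs in B-lineage cells of dura and blood, from hist1h2ail2 at 125 against 3.96 down to Hist1h2bcl1 at 137 on both sides. Right: the 6 members with at least 20 UMIs over NK cells of choroid plexus and dura, with CSF and blood beside them, where Hist1h1c stands at 357 CPM in choroid plexus and 18.1 in dura.

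Genes that act with the histones in S phase were also higher in that comparison. Of 26 S phase genes, 25 were at least 2-fold higher in dural than in blood B-lineage cells, and their sum was 4103 against 724 CPM. Dut, which keeps uracil out of DNA, stood at 879 against 74.8 CPM, and Slbp, which binds the histone stem-loop, at 633 against 120. All 19 G2 and mitosis genes were at least 2-fold higher. Among 17 histone chaperone and assembly genes, 9 were at least 2-fold higher, including Asf1b, which hands H3 and H4 to assembly factors (176 against 3.96 CPM). Of the histone mRNA 3′ end processing genes 5 of 11 were at least 2-fold higher, with Snrpd3 at 362 against 338. Of 7 histone variant genes outside the clusters, 4 were at least 2-fold higher and 1 lower, with H3f3b, the replacement histone H3.3, at 9423 against 4492.

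NK cells of the choroid plexus held more histone CPM than NK cells elsewhere. The sum was 1391 in choroid plexus, 507 in CSF, 346 in CNS, 312 in pia, 202 in dura and 120 in blood. The choroid plexus was 6.90 times dura (5.56 to 8.64) and 11.6 times blood (8.72 to 15.7), and neighbouring levels overlapped in their intervals for CNS and pia and for pia and dura. Against dura, 6 of 6 members with enough counts were at least 2-fold higher, beside 4.58% of all genes, with a median log2 ratio of 2.64 against -0.17. Against blood, 6 of 6 were, beside 8.42%. Choroid plexus held 519 histone UMIs against 100 in dura and 53 in blood, so members could reach enough counts through choroid plexus alone. The counts of members and their median therefore lean toward choroid plexus through the filter itself. NK cells of CSF were 4.22 times blood (3.15 to 5.74), with 5 of 6 members at least 2-fold higher and 0 lower, beside 8.74% and 14.6%. The authors' cluster name covered cells that differed in NK cell markers, 5 genes, whose sum was 1799 CPM in choroid plexus, 1278 in dura, 3090 in CSF, 640 in pia, 12050 in blood and 15376 in CNS. The part of this difference in the result was not tested.

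Hist1h1c, known also as a polyadenylated copy, had the highest level of any member in choroid plexus NK cells, at 357 CPM, and stood at 30.0 in CSF, 18.1 in dura and 11.3 in blood. Hist1h1d, another linker histone gene, stood at 279, 158, 50.4 and 43.1 in the same order. Hist1h2bcl1 stood at 131, 94.2, 44.3 and 20.4. Choroid plexus was the highest for all 3 genes, and the order of CSF, dura and blood was the same. The H3 gene Hist2h3c2 (ENSRNOG00000049198) rested on fewer counts, with 20 UMIs in choroid plexus (53.6 CPM) and 3 in dura (6.05 CPM). S phase genes did not stand apart to that extent. Of 11 S phase genes 2 were at least 2-fold higher in choroid plexus than dura (sum 1247 against 1062 CPM), and Slbp was at 196 against 208 CPM. Of 10 G2 and mitosis genes 4 were at least 2-fold higher (1367 against 1173 CPM), and of 6 histone mRNA 3′ end processing genes 0 were.

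After each cell was thinned to 500 UMIs, 42.7% of choroid plexus NK cells (37.2 to 48.6) carried a histone UMI, against 7.70% in dura, 4.92% in blood and 16.1% in CSF. Without thinning the shares were 63.7%, 18.2%, 23.9% and 49.8%. No cell type that lacks histone mRNA altogether could serve as background. Median depths were 1016 UMIs in choroid plexus, 1195 in dura, 2579 in blood and 2237 in CSF, so the choroid plexus cells were the shallowest of the 4.

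CD4 T cells of the choroid plexus showed a like contrast on fewer counts. Their sum of 781 CPM was 4.41 times that of dura (177, ratio interval 3.44 to 5.64) and 3.04 times that of blood (257, 2.46 to 3.73). Hist1h1c stood at 260 CPM in choroid plexus, 19.4 in dura and 14.0 in blood, and Hist1h1d at 205, 34.5 and 26.6. Of 4 members, 2 were at least 2-fold higher than in dura and 0 lower, beside 4.14% and 20.2% of all genes, and against blood 2 were higher and 2 lower, beside 8.3% and 20.1%. Hist1h2bcl1 was at 54.8 CPM in choroid plexus, 28.0 in dura and 114 in blood. S phase genes were lower in choroid plexus than in dura (726 against 978 CPM), with 0 of 13 at least 2-fold higher. CD8 T cells of the choroid plexus, 37 cells, stood at 868 CPM, 4.28 times dura (2.55 to 7.19) and 3.44 times blood (2.14 to 5.46). In neither did any member reach 20 UMIs, and 5.6% and 7.08% of all genes were at least 2-fold higher.

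Between dura and blood, CD4 T cells went the other way from B-lineage cells, at 177 against 257 CPM (ratio 0.69, 0.57 to 0.82). The difference rested on H2B copies. Hist1h2bcl1 was at 28.0 CPM in dura and 114 in blood (0.25, 0.16 to 0.37) and Hist3h2ba at 28.0 and 61.8 (0.45), while the linker genes Hist1h1d (34.5 against 26.6) and Hist1h1c (19.4 against 14.0) were higher in dura. Of these 4 members 0 were 2-fold higher and 2 were 2-fold lower, against 13.6% and 14.7% of all genes, with medians of -0.38 and -0.01. Without Hist1h2bcl1 the sum turned, to a log2 ratio of 0.058. S phase genes were at 978 CPM in dura and 463 in blood, opposite to the histone sum. In CSF, CD4 T cells stood at 364 CPM, 1.41 times blood (1.28 to 1.57), and 6 of 11 members were at least 2-fold higher, beside 10.4%. They included Hist2h2ac (13.1 against 1.93 CPM), Hist1h1b (14.9 against 2.42) and Hist1h2bo (7.76 against 1.93), whereas Hist3h2ba was at 51.6 against 61.8. CD8 T cells of CSF stood at 1.53 times blood (1.002 to 2.33), with 1 of 3 members at least 2-fold higher, beside 6.07%.

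Dural myeloid 2 cells held the least. In that cluster the sum was 50.03 CPM in dura, 81.7 in pia, 110 in choroid plexus and 160 in CNS, and dura was 0.31 times CNS (0.24 to 0.40). Only 2 members had enough counts, Hist1h2bcl1 (13.5 against 48.1 CPM) and Hist1h1d (13.5 against 50.6), and both were 2-fold lower in dura, against 21.5% of all genes. Macrophage and monocyte markers were at 126514 CPM in dural and 46963 in CNS cells of that cluster, which differed in what they express, and the part of this was not tested. In myeloid1, dura and pia did not differ beyond counting error (99.6 against 91.9 CPM, ratio 1.08, 0.89 to 1.33), and of 4 members 0 were past 2-fold, against 5.79% higher and 4.24% lower genes. Leaving out Hist1h2bcl1 turned that log2 ratio from 0.12 to -0.18, and leaving out cell-cycle-positive cells to -0.066. Choroid plexus myeloid1 cells were 1.15 times dura (0.95 to 1.39), with 1 of 5 members higher and 1 lower by 2-fold, beside 4.62% and 12.4%. Myeloid3 cells of CSF were 1.30 times blood (1.08 to 1.56), with 1 of 3 higher and 1 lower, beside 8.39% and 15.3%.

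Dural cells labelled micro by the authors, whose macrophage and monocyte markers summed to 42564 CPM, stood at 414 CPM against 142 in CNS (2.91-fold, 2.30 to 3.65). The linker gene Hist1h1b was at 76.6 against 3.19 CPM and Hist1h1d at 97.0 against 20.6, while Hist1h2bcl1 was at 51.1 against 67.0. Of 9 members, 4 were at least 2-fold higher and 1 was lower, against 20.8% and 13.6% of all genes. Among the 106 dural cells, 24 carried cell cycle UMIs by the rule given below, and these held 95.1% of the histone UMIs of the cluster there. B cell markers summed to 786 CPM in the dural and 1.59 in the CNS cells of this cluster, and B precursor markers to 143 and 1.47. Their part in the ratio was not tested.

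In mouse dura the members summed to 163 to 13128 CPM over 34 groups (median 411). Cluster BcProg led in both libraries, at 3811 CPM in naive (3635 to 3992, 92 cells) and 13128 in EAE (12961 to 13297, 74 cells). Cluster granuloProli, whose neutrophil markers summed to 434033 CPM, was given a level in EAE only, at 11796 (143 cells). Regulatory T cells followed at 1777 in naive (30 cells) and 6440 in EAE (116 cells), then mDC1 dendritic cells at 647 and 1550. Mature B cells (Bc) stood at 354 and 526, CD4Tc at 294 and 444, and the lowest group, naive mast cells, at 163. The EAE cells of BcProg had B cell markers at 214 CPM against 6460 in naive, and macrophage and monocyte markers at 15541 against 1922, so the name does not describe the same cells in both libraries.

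The members were higher in EAE in all 16 clusters that had a level in both libraries, by 1.34-fold (granulo2) to 3.62-fold (Treg), with a median of 1.71. The ratio was at least 2-fold in 5 of 16, BcProg (3.45, 3.28 to 3.62), Treg (3.62, 3.20 to 4.13), myeloid3 (2.79), mDC1 (2.40, 2.22 to 2.60) and myeloid2 (2.33). The top 5% of cells held 69.1% of the histone UMIs in naive Treg (30 cells) and 23.0% in EAE Treg. These shares were 56.6% and 49.0% in mDC1, 40.9% and 11.8% in BcProg, 34.4% and 42.4% in myeloid3, and 31.4% and 19.0% in myeloid2. The counting intervals do not cover such spread between cells, and the naive Treg level in particular rests on few cells. In T cells the ratio of EAE over naive was 1.51 in CD4Tc (1.32 to 1.73), 1.54 in CD8Tc (1.34 to 1.79) and 1.41 in gdTc. It was 1.71 in myeloid1 (1.52 to 1.92) and in granulo1 (1.37 to 2.16), 1.75 in mDC2 (1.57 to 1.96) and 1.49 in Bc (1.13 to 1.97). The granulo1 value rested on the processing: its log2 ratio was 0.77 as reported, 0.056 with equal weight per cell, 1.49 with TMM scaling and 1.55 with only cells at or above the lowest EAE depth. The last choice also moved CD4Tc from 0.60 to 1.28. Condition and library cannot be told apart in these pools. Single members were less even. In BcProg 23 of 45 were at least 2-fold higher and 3 lower, beside 16.2% and 20.4% of all genes (medians 1.04 and -0.13), and in Treg 17 of 37 and 2, beside 15.2% and 9.53%. In mDC1 the counts were 11 and 1 of 25, beside 19% and 3.37%, and in CD8Tc 6 and 2 of 12, beside 6.38% and 7.92%.

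Clusters with smaller ratios of the sum were mixed in the same way. In CD4Tc 4 of 10 were at least 2-fold higher and 1 lower, beside 17.1% and 9.32% of genes (medians 0.38 and 0.22). In myeloid1 the counts were 10 and 1 of 23, beside 20.8% and 4.59%, and in mDC2 9 and 2 of 20, beside 30% and 5.32%. In granulo1 they were 4 and 2 of 18, beside 6.01% and 27.1%, and in Bc 1 and 0 of 4, beside 8.07% and 18.3%. Innate lymphoid cells split evenly, with 5 higher and 5 lower of 12, beside 27.9% and 7.6%, and a median of -0.29 against 0.52 for all genes.

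**Figure D3:**
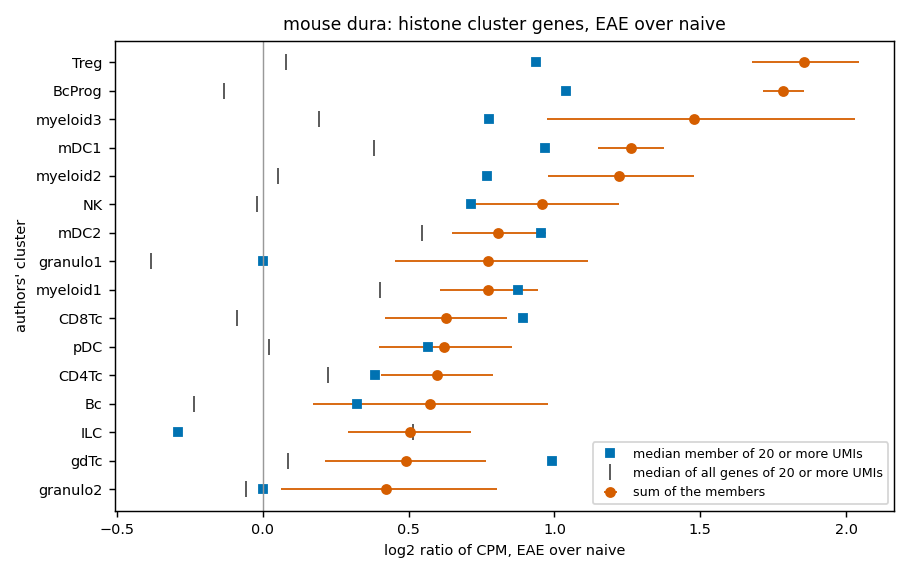
Log2 ratio of CPM, EAE over naive, for each mouse cluster with a level in both libraries. Circles with 95% counting intervals are the sum of the members, squares the median member with at least 20 UMIs, and ticks the median of all such genes. All 16 sums lie right of 0, while the median member of ILC lies at -0.29.

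One copy carried much of the difference. Hist1h2ap was at least 2-fold higher in EAE in 16 of 16 clusters, beside 6.01% to 30% of all genes in these clusters. It stood at 62.0 against 3.14 CPM in CD4Tc, 76.1 against 5.11 in granulo1, 41.8 against 3.73 in mDC2 and 33.4 against 5.06 in myeloid1. The naive sides of these rested on 4, 2, 7 and 9 UMIs in that order. In naive granulo2 Hist1h2ap had 0 UMIs, so that cluster counts by a bound set by 3 counts. It stood at 5202 against 339.8 CPM in BcProg (15.3-fold), 2565 against 228 in Treg (11.2-fold) and 530 against 101 in mDC1 (5.26-fold). Hist1h2ap made up 0% to 15.6% of the member UMIs in naive clusters and 10.9% to 39.8% in EAE. Without it all 16 sums were still higher in EAE, by 1.16-fold to 2.50-fold with a median of 1.46, and in 14 the interval lay above 1.

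Other copies spread on both sides, beside the same shares of genes higher and 3.37% to 27.1% of genes at least 2-fold lower in these clusters. Hist1h1e (H1) was at least 2-fold higher in 15 of 16 clusters, Hist2h2ac (H2A) in 8 of 9, Hist1h4d (H4) in 9 of 15, Hist1h1b in 6 of 10, Hist1h2ae in 7 of 14 and Hist1h1c in 8 of 16. Hist3h2a, an H2A gene of the third cluster, was 2-fold lower in 7 of 14 and higher by that margin in 0, at 17.4 against 108 CPM in BcProg and 5.43 against 22.0 in CD4Tc. Hist1h4i (H4) was 2-fold lower in 7 of 15 and higher in 1, at 10.4 against 29.8 in myeloid1. Hist1h2bc, known as a polyadenylated copy, was lower in 3 and higher in 2 of 15, at 22.8 against 56.2 in granulo1 and 42.3 against 14.1 in mDC1. Copies with an annotated run past the loop were found on both sides.

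Beside these ratios, the cell cycle genes behaved differently from cluster to cluster. In BcProg the S phase genes were level (3386 against 3469 CPM, 2 of 28 at least 2-fold higher and 1 lower), and Slbp was at 289 against 501 CPM. In mDC1 2 of 27 S phase genes were at least 2-fold higher (842 against 892 CPM), and in Treg 4 of 27 (2987 against 3084). In CD4Tc 15 of 21 were (984 against 471). Histone chaperone and assembly genes were at least 2-fold higher in 2 of 19 in BcProg, with Asf1a at 47.6 against 245 CPM, and the histone mRNA 3′ end processing genes in 1 of 12. By the count of cell cycle UMIs given below, 74 of 74 EAE cells of BcProg were positive and 28 of 92 naive cells were (30.4%, 21.3 to 40.9). Neutrophil markers were at 6932 against 217 CPM in BcProg, 8319 against 164 in Treg and 7996 against 200 in CD4Tc, and their part in the ratios was not tested.

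The balance between the top H2A copies, Hist1h2ap and Hist1h2ae, differed between the mouse libraries in all clusters compared. Hist1h2ap made up 20.4% of their joint UMIs in naive BcProg (17.6 to 23.4) and 69.4% in EAE (68.6 to 70.2). It made up 26.0% and 78.3% in Treg, 40.6% and 69.1% in mDC1, 25.7% and 69.3% in myeloid1, and 28.6% and 77.7% in CD4Tc. Over the 15 clusters with counts of both, the naive share lay between 20.4% and 52.6% and the EAE share between 64.4% and 87.2%. It was higher in EAE in 15 of 15, and in 8 the intervals did not overlap. Barcodes without a cluster showed the same, 34.2% in naive and 73.9% in EAE. In naive dura the share was 28.8% in cell-cycle-positive cells (defined below) and 36.2% in the others, and in EAE 76.6% and 74.1%. The transcripts of this pair carry the identical loop core, printed above, and differ in the annotated run past it, which is 3 bases in Hist1h2ap and 151 in Hist1h2ae. Whether that run has a part in the shares was not tested. The end of Hist1h2ap has no words of its own, so the shares also depend on how reads that fit several copies were counted.

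**Figure D4:**
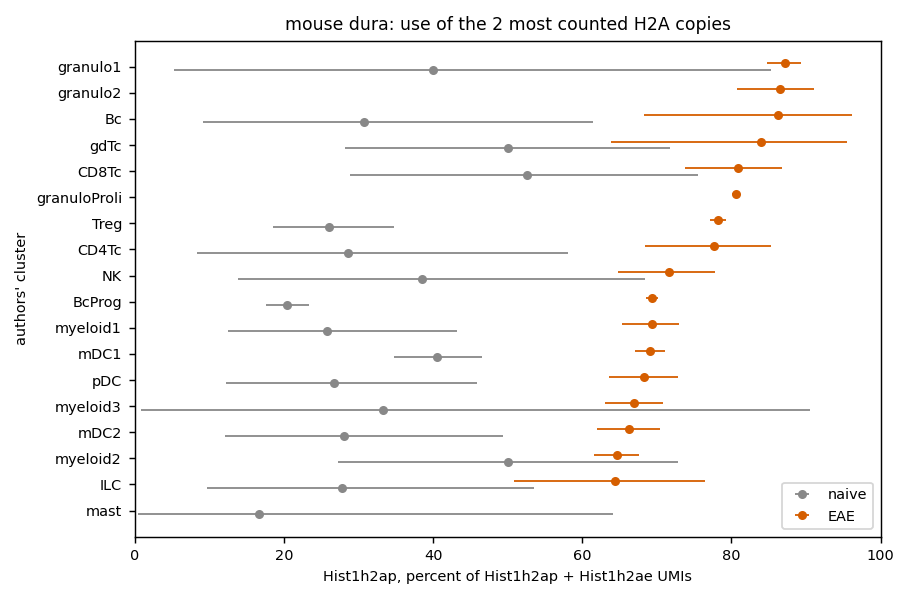
Share of Hist1h2ap in the UMIs of Hist1h2ap and Hist1h2ae together, in percent, by mouse cluster with 95% Clopper-Pearson intervals. Grey points are naive and orange points EAE, and naive granulo2, with no UMI of either, has no point. The naive points lie at or below 52.6% and the EAE points at or above 64.4% in clusters seen in both.

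To see how the members follow division, a cell was counted as cell-cycle-positive with at least 2 UMIs over the S phase and the G2 and mitosis genes (46 in rat, 48 in mouse, no member among them) after thinning to 500 UMIs in rat or 1000 in mouse. This cuts a range and does not define a cell type. In EAE dura 750 of 4579 cells were positive, 323 of them at the limit of 2, and 1088 cells had 1 such UMI. The positive cells had 6886 CPM of histones against 421.5 in the others (16.3-fold, 16.1 to 16.6) and held 82.6% of histone UMIs but 22.5% of all UMIs. In naive dura 468 of 2666 cells were positive, at 1124 against 314 CPM (3.57-fold, 3.41 to 3.75). In rat dura 883 of 4953 were, at 1075 against 120 CPM (8.996-fold, 8.34 to 9.71), holding 70.1% of histone UMIs. These ratios depended on the limit: with 1 and 3 UMIs in place of 2, the log2 ratio of 1.84 in naive dura became 0.97 and 2.65, that of 4.03 in EAE 3.19 and 4.10, and that of 3.17 in rat dura 2.51 and 3.52. The other rat tissues had lower ratios, 4.09 in CSF, 4.05 in choroid plexus, 2.95 in pia, 1.88 in CNS and 1.09 in blood (265 against 242 CPM).

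The ratio also depended on the cluster. In dural Bc2 the 309 positive of 371 cells stood at 2151 CPM against 250 in the rest (8.61-fold). In dural Bc1 the 149 positive of 836 cells stood at 728 against 591 (1.23-fold, 1.02 to 1.49), and in blood Bc1 at 288 against 351 (0.82, 0.58 to 1.13). In choroid plexus NK cells the 55 positive cells stood at 2188 against 1117 in the rest (1.96-fold), and in dural NK cells at 390 against 139, so choroid plexus NK cells below the limit were above dural cells past it. In mouse mDC1 the ratio was 7.38 in naive and 7.36 in EAE. It was 22.1 and 16.8 in Treg, 4.603 in naive BcProg, and 0.79 and 1.16 in CD4Tc, whose intervals included 1.

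Copy by copy, 49 of 56 members were at least 2-fold higher in cell-cycle-positive EAE cells and 0 were 2-fold lower, against 7.62% and 6.79% of all genes. In naive dura it was 26 of 38 and 0, against 5.79% and 3.77%, and in rat dura 21 of 22 and 0, against 14.2% and 10.7%. Both sides pooled all clusters, which differ in their positive cells (97.2% of EAE granuloProli cells and 8.2% of EAE myeloid1 cells). Division and cluster therefore cannot be told apart in these ratios of single copies. Within clusters the EAE ratio of the sum was 0.43 in gdTc, 1.72 in granuloProli and 16.8 in Treg. The steepest EAE copies were Hist1h2af (H2A, 19.2 against 0.11 CPM), Hist1h3b (H3, 37.6 against 0.33), Hist1h2ab (H2A, 212 against 2.07) and Hist1h3c (H3, 112 against 1.18). Hist1h1b stood at 636 against 8.37 CPM (76.0-fold), Hist1h2ap at 3046 against 68.5 (44.5-fold) and Hist1h2ae at 930 against 23.9 (38.9-fold). In rat dura hist1h2ail2 stood at 247 UMIs in positive cells and 8 in the others (118-fold by CPM, 59.2 to 277) and Hist1h1b at 194 against 3.38 (57.4-fold). Hist1h1b was steep in both species.

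In the same pooled contrast the copies known from non-dividing cells lay at the flat end, together with Hist3h2a. Hist3h2a was lower in positive EAE cells, 13.6 against 25.1 CPM (0.54, 0.46 to 0.63), and Hist1h1c (125 against 70.6, 1.77-fold) and Hist1h2bc (57.4 against 29.4, 1.95-fold) were less than 2-fold higher. Hist2h2be, with 16 and 36 UMIs, was at 1.53-fold (0.79 to 2.82). In naive dura Hist1h2bc (27.9 against 46.3 CPM), Hist1h1c (36.8 against 58.1) and Hist3h2a (24.4 against 34.8) were all lower in positive cells, with intervals below 1. In rat dura Hist1h2bcl1 was the flattest, at 80.6 against 40.9 CPM (1.97-fold, 1.63 to 2.38), and Hist1h1c stood at 50.8 against 12.8 (3.99-fold).

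**Figure D5:**
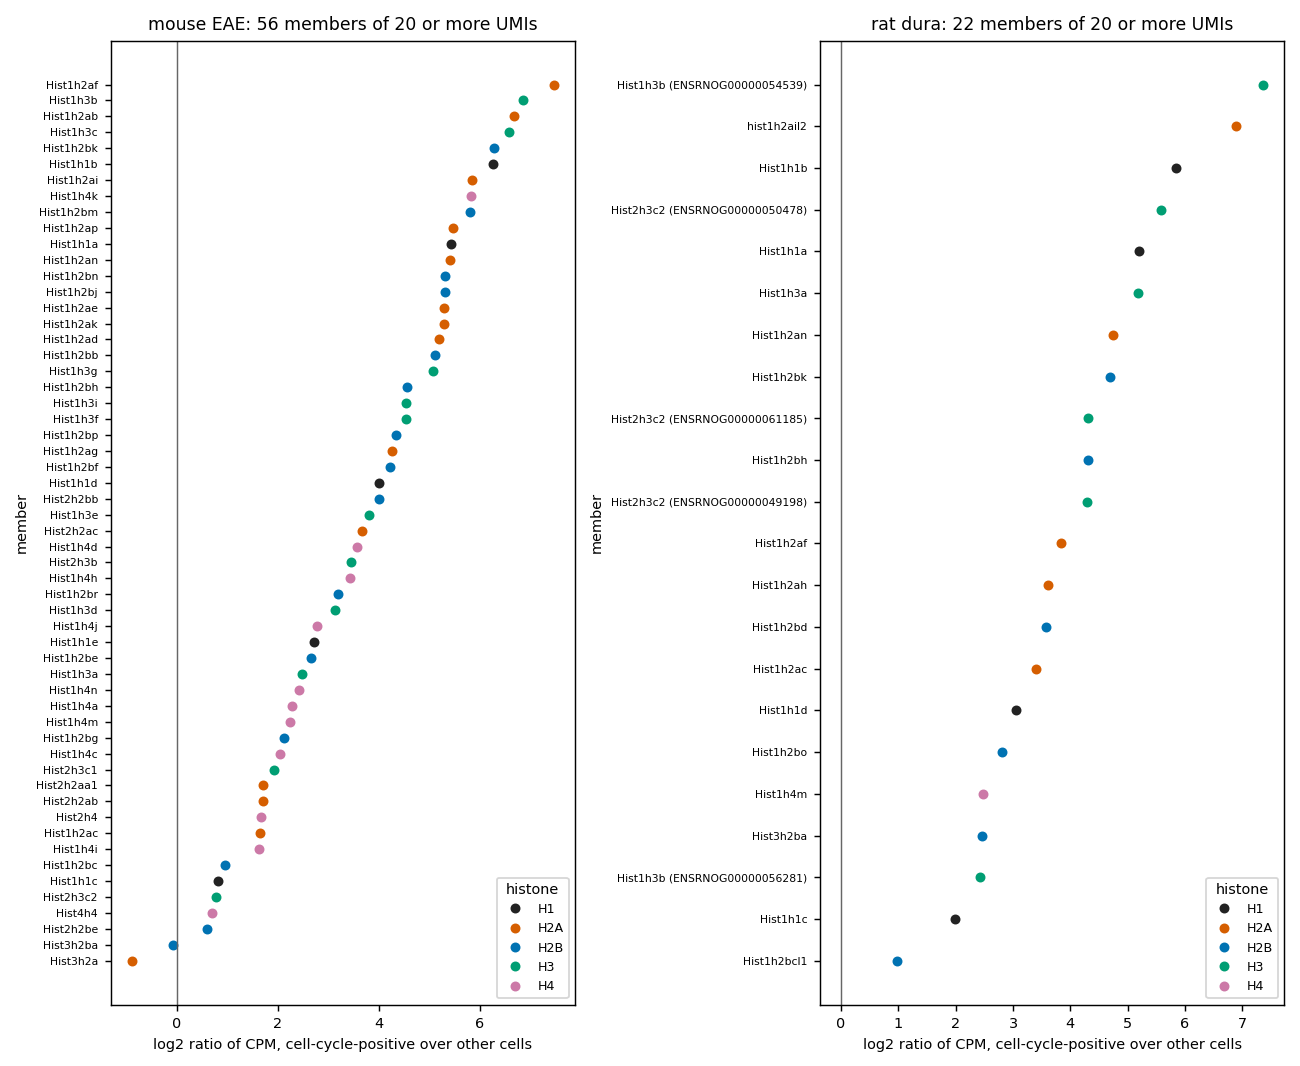
Log2 ratio of CPM, cell-cycle-positive over other cells, for each member with at least 20 UMIs in EAE mouse dura (left) and rat dura (right), coloured by kind of histone. Hist3h2a lies left of 0 in mouse, Hist1h2af and Hist1h3b lie farthest right there, and in rat Hist1h2bcl1 is the lowest and Hist1h3b (ENSRNOG00000054539) the highest.

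The members were also grouped by transcript end, again with cells pooled over clusters. The 18 EAE members ending at the loop summed to 3769 CPM in positive cells and 105 in the others (35.8-fold). The 21 members that run on past it summed to 2191 against 267.5 (8.19-fold), and the 18 with no loop in the annotated transcript to 926 against 48.8 (19.0-fold). The median log2 ratios of their members were 4.72, 2.12 and 4.801 in that order. In naive dura the ratios of the sums were 8.12, 2.96 and 3.11. In naive dura the last 2 of these did not differ beyond counting error (2.79 to 3.14 and 2.78 to 3.47). Hist1h2ap gave 40678 of the 50343 UMIs of the first group in positive EAE cells. Without it, an alternative chosen after seeing the data, the first group was at 19.7-fold in EAE (18.7 to 20.8) and 5.42-fold in naive dura (4.70 to 6.24). The EAE interval overlaps that of the group with no loop in the annotated transcript (18.1 to 19.9). As given above, a loop of that group may lie past the annotated end.

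Between the libraries, cell-cycle-positive EAE cells had 6.13 times the histone CPM of positive naive cells (5.92 to 6.35), and 37 of 54 members were at least 2-fold higher and 0 lower, against 10.2% and 13.8% of all genes, with medians of 1.54 and -0.06. The clusters that make up these cells differ between the libraries, and annotated EAE cells held more UMIs each (median 11743 against 4163.5 in naive). Within mDC1 the ratio was 2.45 (2.24 to 2.68), with 9 of 21 members at least 2-fold higher and 1 lower, beside 20.9% and 3.34%. Within BcProg it was 2.37 (2.25 to 2.50), with 16 of 45 higher and 5 lower, beside 15.6% and 17%. As given above, the name BcProg does not describe the same cells in both libraries, so its ratios do not hold cell type constant. The 4 copies below that were higher over all positive cells were less so within these clusters. Hist1h2ap was at 3046 against 133 CPM over all positive cells (23.0-fold), but 9.51-fold higher in BcProg and 5.08-fold in mDC1. Hist1h1b was 8.67-fold higher over all, 4.21-fold in BcProg and 2.11-fold in mDC1, and Hist1h1e 8.82, 2.96 and 5.41-fold in that order. Hist1h2ae was 2.83-fold higher over all, level in BcProg (1.08, 0.99 to 1.18) and 1.54-fold higher in mDC1. Hist1h4i was level over all (45.3 against 45.5 CPM) and lower in BcProg (0.53, 0.38 to 0.75). Hist3h2a was at 0.55 over all, 0.30 in BcProg and 1.15 in mDC1 (0.51 to 2.81).

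Outside the family, genes of at least 200 UMIs were correlated with the histone sum as log2(CPM + 1) over groups of at least 50 cells. The genes with the highest Pearson r in mouse were Aunip, Mxd3, Aspm, Esco2 and Ccnb1, at 0.94, 0.94, 0.92, 0.92 and 0.92 over 29 groups and 9653 genes. Ccnb1 is cyclin B1 and Aspm a spindle protein. In rat they were Upf3b, Srsf11, Armt1, H2afy and Chchd1, with r of 0.77, 0.76, 0.75, 0.75 and 0.73 over 42 groups and 8529 genes. These are descriptions over groups that share libraries and depth. Testis copies were nearly uncounted, with Hist1h1t at 3 and 1 UMIs in mouse and rat, Hist1h2aa at 0 and 8, and Hist1h2ba at 0 and 13.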

How the data were processed

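The deposited matrices give each barcode's unnormalized UMI counts by gene, from 3′ chemistry v2 in rat and v3 in mouse per the labels' protocols. The submitters' processing notes name Cell Ranger 3.1.0 and the builds Rnor_6.0 and mm10, and the authors' rat matrix names version 3.0.2 in its file header. Clusters and tissues are the authors'. Here, counts were summed over cells and divided by all UMIs, with no length term because the reads are 3′ tags. Levels carry exact Poisson intervals, ratios exact conditional binomial intervals and shares Clopper-Pearson intervals, all at 95%. Groups needed 20 cells, and genes in a comparison 20 UMIs over both sides. A gene could thus pass through its counts on a single side, so counts of members past 2-fold are not independent of that filter. A side at 0 was set to 3 counts for log2 ratios, and these ratios are not printed as measured. No test was run, since each group was 1 library. Alternatives were TMM scaling (edgeR 4.0.16, R 4.3.3), equal weight per cell, a stricter minimum, other limits for cell-cycle-positive cells, and leaving out called doublets, the most counted copy or shallow cells. Scrublet (scanpy 1.11.5) was used to call doublets, which were kept. The caller marked 0% of CNS, 0.0990% of pia and 0.0720% of naive cells, and 0.572% to 1.81% elsewhere. The first 3 rates are so low that the caller may not have worked there, which was not checked. Named members were the 8 with the most UMIs, the top of each kind, testis and polyadenylated copies, those nearest the minimum, and the 3 highest and lowest of a comparison; Hist1h2ao and other near copies, and the loop examples, were named for their sequences. Members and lists were chosen with earlier results of these data known. The 2 tables of receptor contigs were not used. Intervals were tested on simulated data. Other steps used Python 3.11.15, numpy 2.4.6, pandas 2.3.3, scipy 1.17.1 and matplotlib 3.10.9.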

Additional observations from a re-analysis of the deposited data

Results flagged for a closer look

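Barcodes that the authors left without a cluster held more histone mRNA than the annotated cells of the same library in 5 of the 8 expression libraries, counting those where the 95% intervals did not overlap. Blood was higher within counting error (253.6 against 243 CPM), and choroid plexus and pia were lower within it. In EAE mouse dura 421 such barcodes stood at 5643 CPM against 1879 in annotated cells, and in naive dura 350 stood at 1933 against 471. In rat dura 241 stood at 944 against 317, in CSF 4348 at 418 against 336, and in CNS 48 at 310.6 against 149. Their cell cycle genes summed to 4427, 4238, 8603, 229 and 4402 CPM in that order, against 1338, 1052, 2629, 695 and 769 in annotated cells, so those genes were lower than in annotated cells in CSF and higher in the other 4 libraries.

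Hist1h1c was higher in EAE than in naive in 15 of 16 mouse clusters, with a median log2 ratio of 0.99. The exception was ILC, at -1.16 (65.1 against 146 CPM). The highest ratio was 3.64 in Treg (89.1 against 7.14 CPM, the latter 1 UMI, ratio interval 2.21 to 496). Hist1h2bc was higher in EAE in 6 of 15 clusters, and stood at -1.30 in granulo1 (22.8 against 56.2 CPM) and 1.58 in mDC1 (42.3 against 14.1 CPM). In gdTc it had 0 UMIs in EAE and 26 in naive, where the value of -1.58 is a bound set by 3 counts. The differences between clusters were not tested.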

How the results depend on the processing

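No paired analysis was possible because each group was 1 library. Values are log2 ratios of the histone sum. Keeping only members of at least 100 UMIs left all 12 planned comparisons within counting error. Leaving out called doublets did too, but says little for comparisons with CNS, pia or naive cells, where the caller marked almost no cells. Some alternatives turned a direction: without the most counted copy CD4 Tc, dura over blood, went from -0.54 to 0.058 and rat myeloid1, dura over pia, from 0.12 to -0.18, and the latter also to -0.066 without cell-cycle-positive cells, an alternative chosen after seeing the data. That last alternative moved B-lineage dura over blood from 1.92 to 0.63, CD4 Tc dura over blood to -0.91, myeloid 2 from -1.67 to -2.25 and mouse myeloid1 from 0.77 to 0.94. TMM scaling shifted ratios by -0.40 to 0.72 and gave 1.77 for B-lineage, 0.68 for Bc1 (0.85 as reported), 0.84 for CD4 Tc CSF over blood (0.50), 0.40 for CD4Tc (0.60), 0.50 for myeloid1, 0.40 for mDC2 (0.81) and 1.49 for granulo1 (0.77). Equal weight per cell gave 1.48 for B-lineage, -0.83 for CD4 Tc dura over blood and 0.056 for granulo1. Without the most counted copy B-lineage was 2.48, Bc1 1.08, CD4Tc 0.39, CD8Tc 0.38 (0.63), mDC2 0.64 and granulo1 0.45. Cells above the higher lowest depth only gave 1.28 in CD4Tc, 1.04 in CD8Tc and 1.55 in granulo1. With limits of 1 and 3 cell cycle UMIs, positive over other cells was 2.51 and 3.52 in rat dura (3.17), 0.97 and 2.65 in naive (1.84) and 3.19 and 4.10 in EAE (4.03). Apart from the alternatives' own construction, the cause of these moves was not tested. Depth limits single members most: in rat most copies had too few counts for a ratio outside the B-lineage comparison.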
